A study of Mus musculus with 6 samples.

Results

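The TIM and TOM genes encode the translocases of the inner and outer mitochondrial membrane. They were taken as all genes of the deposited table whose symbol begins with Timm or Tomm followed by a digit, which gave 23 of 14975 genes, of which 14 were Timm and 9 were Tomm genes. RNA-seq was performed on platelets purified from whole blood after removal of leukocytes (CD45+) and erythroid cells (Ter119+) with antibodies. The control group, labelled WT, was described in the methods as irradiated mice that received normal bone marrow cells (BMT control). The pre-AML group, labelled AML, was described as sub-lethally irradiated mice that received GFP+ cells from primary recipients of hematopoietic stem and progenitor cells carrying the MLL-AF9 oncogene on a retrovirus, and was studied 1 week after transplantation, which is the time the study names pre-AML. The labels gave the strain background as C57BL/6 in both groups and named no week. According to the methods the mice were female and 8 to 12 weeks old, and recipients were CD45.1 or C57BL/6 mice. By this description both groups had been irradiated and transplanted, and no platelets of un-irradiated mice are among these libraries. The paper elsewhere uses WT for un-irradiated mice and AML for the later stage of frank leukemia, so the group names alone do not show this. There were 3 libraries in each group, numbered 1 to 3 as in the labels. The methods speak of 3 independent mice, whereas the labels mention 2 replicates and pools of 3 to 4 mice for a sample, so that what the spread between libraries stands for could not be settled.

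Almost all mitochondrial proteins are made in the cytosol and imported. The outer membrane complex (TOM) is the entry gate. Its receptors Tom20, Tom22 and Tom70 bind the incoming protein, Tom40 forms the channel, and small subunits such as Tom5 and Tom7 help to assemble the complex and keep it stable. Behind it, the TIM23 complex passes proteins with a cleavable presequence through or into the inner membrane, while the TIM22 complex inserts carrier proteins. The small TIM chaperones guard hydrophobic proteins on their way across the intermembrane space. Platelets have no nucleus, and their mRNA is largely inherited from the megakaryocytes that release them, while their mitochondria remain active in making ATP.

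Values were given as FPKM, reads scaled to gene length and to the size of the library, so that levels of different genes can be set side by side. Such a comparison depends on the length taken for each gene. Recovered reads on listed genes were estimated at 11935847 to 17777998 per library. The estimate used exon lengths of GENCODE, which did not give whole reads for every gene. The size that FPKM had been divided by lay within 0.983 to 1.01 of that number except in pre-AML 3, where it was 1.31 times as large and FPKM summed to 376148 against 508605 to 541784 in the others. Platelet marker genes summed to 91762 to 115664 FPKM in the controls, 92740, 94029 and 62603 in pre-AML 1 to 3, and 0 of 14 markers exceeded all controls in pre-AML 3. Leukocyte markers summed to 743 to 761 in the controls and to 807, 899 and 1106 in pre-AML 1 to 3, and T and NK cell markers to 19.1 to 28.9 against 35.0, 33.4 and 36.7, so both sums exceeded all controls in every pre-AML library. Of the 6 leukocyte markers 3, 5 and 5 were above all controls in pre-AML 1 to 3, and of the 9 T and NK cell markers 6, 4 and 8. The T and NK cell markers Cd3g and Ncr1 were at 0 in all controls. This list includes Gzma, the 1 tested gene with an adjusted p under 0.05 in limma-trend, as described below. The T and NK cell sum is therefore not independent of that result. The B cell markers summed to 1.82 to 1.92 FPKM in the controls and to 1.77, 5.91 and 67.0 in pre-AML 1 to 3, with 0, 5 and 7 of 7 markers above all controls and the defining genes Pax5 and Blk at 0 in all controls. The monocyte and macrophage markers summed to 2385 to 2615 in the controls and to 2484, 2335 and 3366 in pre-AML 1 to 3, with 2, 4 and 9 of 10 above all controls and Cd14 at 0 in all controls. Neutrophil markers summed to 3.16 to 3.66 in the controls and to 4.63, 2.07 and 1.57 in pre-AML 1 to 3, with 3, 3 and 2 of 9 above. The neutrophil markers Elane, Lcn2 and Mpo were also at 0 in all controls. Erythroid markers summed to 2365 to 2665 in the controls and to 2999, 2896 and 2386 in pre-AML 1 to 3, with 1, 3 and 3 of 7 above. The part of these differences in the values below was not tested, and in such bulk libraries fewer cells of a type and less RNA per cell cannot be told apart.

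For the TIM and TOM genes on which the results turn, the stretch before the start of transcription is shown here from RefSeq (GRCm38.p6), which held a promoter for 20 of the 23 genes. Windows of 250 bases before the start were searched on both strands for the ETS core CCGGAAG, the NF-Y box CCAAT, the NRF1 site and the GATA site AGATAA. Bases lying in an exon of any gene were left out of what is printed. Tomm22 is shown as the tested TIM or TOM gene whose groups did not overlap, Timm8b as the highest of the small TIM genes, and Timm17b and Timm17a as paralogs of very different level. Capitals mark matches of the ETS core in Tomm22 and Timm8b and of the NF-Y box in Timm17b and Timm17a.
Tomm22, chr15:79670618-79670860, plus strand: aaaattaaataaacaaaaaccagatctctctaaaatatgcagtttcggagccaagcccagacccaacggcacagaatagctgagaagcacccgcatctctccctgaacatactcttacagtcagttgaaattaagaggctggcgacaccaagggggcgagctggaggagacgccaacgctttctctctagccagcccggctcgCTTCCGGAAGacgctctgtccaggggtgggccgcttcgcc
Timm8b, chr9:50603813-50603900, plus strand: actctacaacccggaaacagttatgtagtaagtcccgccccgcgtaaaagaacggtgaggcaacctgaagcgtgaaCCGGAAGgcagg
Timm17b, chrX:7899270-7899335, plus strand: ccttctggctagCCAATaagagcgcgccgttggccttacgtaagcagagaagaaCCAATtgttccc
Timm17a, chr1:135313779-135313987, minus strand: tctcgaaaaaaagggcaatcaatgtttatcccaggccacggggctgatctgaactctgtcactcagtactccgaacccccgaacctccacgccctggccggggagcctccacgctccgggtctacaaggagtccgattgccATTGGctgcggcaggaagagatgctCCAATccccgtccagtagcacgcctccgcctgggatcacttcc
In Tomm22 the ETS core was matched on both strands, and these 2 matches overlap. The windows of Timm8b and Timm17b also held exons of genes on the opposite strand, Sdhd, a subunit of respiratory complex II, and Pqbp1, so their printed stretches are shorter.

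The ETS core was found in the windows of 7 of the 20 TIM and TOM genes (35.0%), namely Timm10, Timm23, Timm29, Timm8b, Tomm22, Tomm34 and Tomm70a. It was found in 14.5% of the 3548 promoters of tested genes and in 7.05% of all 27025 promoters. The NF-Y box was found in 6 of the 20 (30%), against 36.3% and 34.5%, and among them were both Timm17 paralogs. The NRF1 site was found only in Tomm20 of the 20 (5%, against 9.41% and 3.86%), and the GATA site in Timm9 and Tomm20l (10%, against 5.81% and 10.3%). These matches describe the letters of the windows. The 7 genes with the ETS core included Tomm22 and Tomm70a, whose levels lay in opposite directions between the groups as described below.

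In control platelets the TIM and TOM genes spanned a wide range of levels. Tomm7 stood far above the others, with 94.2 ± 15.6 FPKM (SD, n = 3), which placed it at rank 386 of 14975 genes. It was followed by Tomm22 with 11.5 ± 0.0781 FPKM, Timm8b with 9.62 ± 1.53 FPKM and Timm17b with 6.17 ± 1.17 FPKM. The other end was formed by Tomm40l and Timm8a1, with 0.0285 ± 0.0362 and 0.0116 ± 0.0202 FPKM. Of the 23 genes, 10 had a mean of at least 1 FPKM over the 6 libraries and were tested, and 13 lay below this filter and are described by their values. The reads behind the FPKM came out as whole numbers in all libraries for 18 of the 23 genes.

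**Figure D1:**
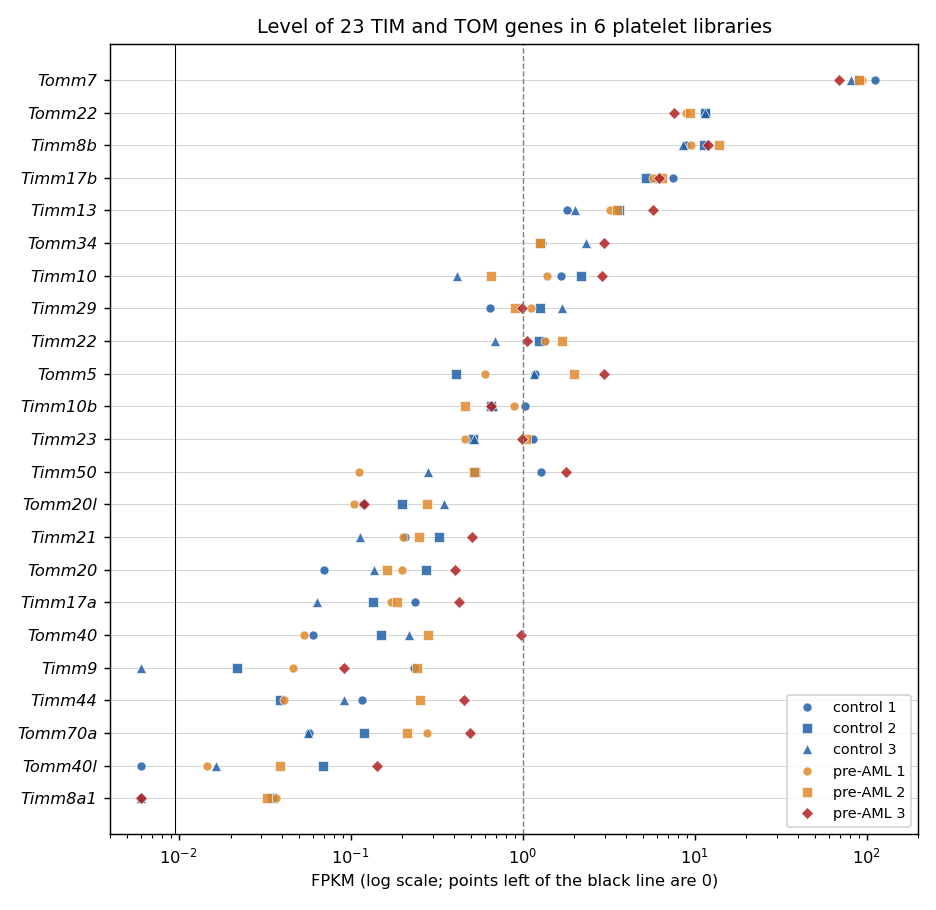
FPKM of the 23 TIM and TOM genes in the 6 platelet libraries, on a log axis, ordered by control mean, with 1 point for each library. The dashed line marks 1 FPKM. Tomm7 lies between 68.7 and 111 FPKM, and the red points of pre-AML 3 are the rightmost in 12 of the 23 genes.

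The summed level of the TIM and TOM genes was carried largely by 1 small subunit. Tomm7 made up 73.4%, 68.8% and 68.8% of the summed FPKM of the 23 genes in control 1 to 3, and 72.3%, 67.3% and 58.2% in pre-AML 1 to 3. The sum itself was 152, 132 and 118 FPKM in the controls and 129, 134 and 118 FPKM in pre-AML platelets, so the ranges overlapped. Without Tomm7 the sum was 40.4, 41.0 and 36.7 FPKM against 35.7, 43.6 and 49.4 FPKM, again with overlap and with pre-AML 3 highest.

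**Figure D2:**
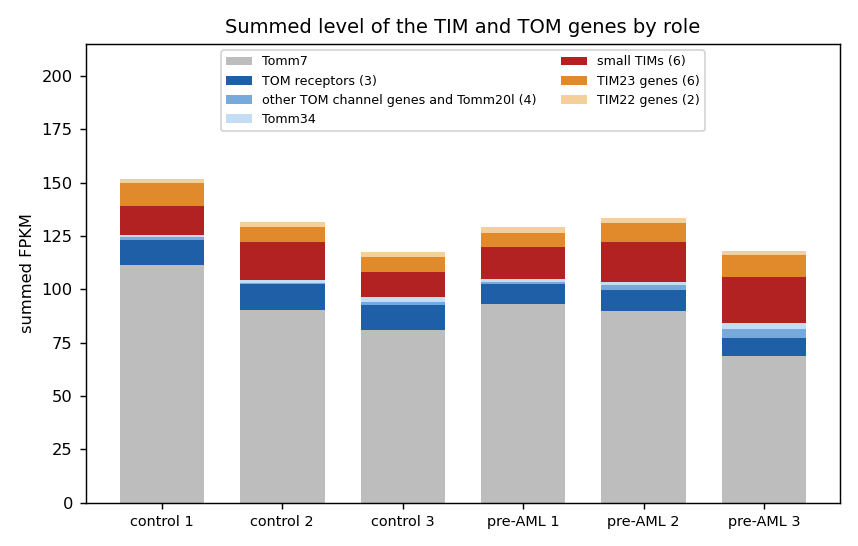
Summed FPKM of the TIM and TOM genes in each library, stacked by role, with the number of genes of each role in brackets and Tomm7 and Tomm34 shown alone. Tomm7 fills most of every bar, and the small TIM part is largest in pre-AML 3.

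Among the receptors, Tomm22 (Entrez gene 223696, chr15:79670861-79673400 of GRCm38, plus strand), the central receptor that also organises the complex, was the abundant one. Its level was 11.6, 11.4 and 11.5 FPKM in control 1 to 3, and 8.88, 9.39 and 7.55 FPKM in pre-AML 1 to 3. All 3 pre-AML libraries lay below all 3 controls, with means of 8.61 ± 0.949 against 11.5 ± 0.0781 FPKM (SD, n = 3), and the groups stayed apart without pre-AML 3. The log2 fold change of FPKM + 1 was -0.38 (standard error 0.13, 95% interval -0.68 to -0.08), with an unadjusted p of 0.0192 and an adjusted p of 0.522 from limma-trend with Benjamini-Hochberg adjustment over all tested genes, which did not pass the threshold. The 3 controls lay closer together than their counting error. Control 1, with 224 reads, had an exact Poisson 95% interval of 10.1 to 13.2 FPKM, and pre-AML 2, with 234 reads, one of 8.23 to 10.7 FPKM, so these intervals of single libraries overlapped. In pre-AML 3, with 291 reads, the interval was 6.71 to 8.47 FPKM and lay below those of all 3 controls. After scaling to recovered reads, pre-AML 3 had 9.91 (8.81 to 11.1) and its interval overlapped those of the controls, which then had values of 11.4, 11.6 and 11.4 and lower bounds of 9.93, 10.2 and 9.94, while the groups still did not overlap. The counting intervals cover counting error only, since reads amplified by PCR are not independent molecules. The value of Tomm22 was below 0 in all 16 alternative analyses, from -0.44 to -0.23, and the unadjusted p was under 0.05 in 13 of them, with adjusted p between 0.222 and 0.785. It was nearest to 0 where the libraries were scaled to the same sum of FPKM.

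The other receptors were low. Tomm70a (Entrez gene 28185, chr16:57121703-57156705, plus strand), which receives carrier proteins together with cytosolic chaperones, had 0.0571, 0.119 and 0.0564 FPKM in the controls and 0.277, 0.211 and 0.496 FPKM in pre-AML 1 to 3. Its pre-AML values were all above the controls, also without pre-AML 3. Its reads stood in the ratio of 4, 10 and 4 to 22, 19 and 69, taken as the smallest whole numbers that fit, and its mean was below the filter. In the analysis without a filter, its log2 fold change of FPKM + 1 was 0.30 with an unadjusted p of 0.025 and an adjusted p of 0.705 from limma-trend, where at an unadjusted p under 0.05 1 of the 23 TIM and TOM genes was higher (Tomm70a) and 1 lower (Tomm22), against 3.32% higher and 2.49% lower of all genes. Leukocyte and T and NK cell marker sums, the latter including Gzma, were above the controls in all 3 pre-AML libraries. These were the same 3 in which Tomm70a was higher and Tomm22 lower, and the part of such cells in both was not tested. Tomm20, the receptor for presequences, had 0.0695, 0.275 and 0.137 FPKM in the controls and 0.199, 0.162 and 0.402 FPKM in pre-AML platelets, with overlap between the groups.

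Non-overlap of the groups is best read against all genes. Of the 4412 tested genes, 12.8% had all pre-AML libraries below all controls and 6.14% had them above, and of the 10 tested TIM and TOM genes 1 (Tomm22) was below and 0 were above. Over all 14975 genes, 5.74% were below and 7.53% above, and of the 23 TIM and TOM genes 1 was below (Tomm22) and 1 above (Tomm70a).

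**Figure D3:**
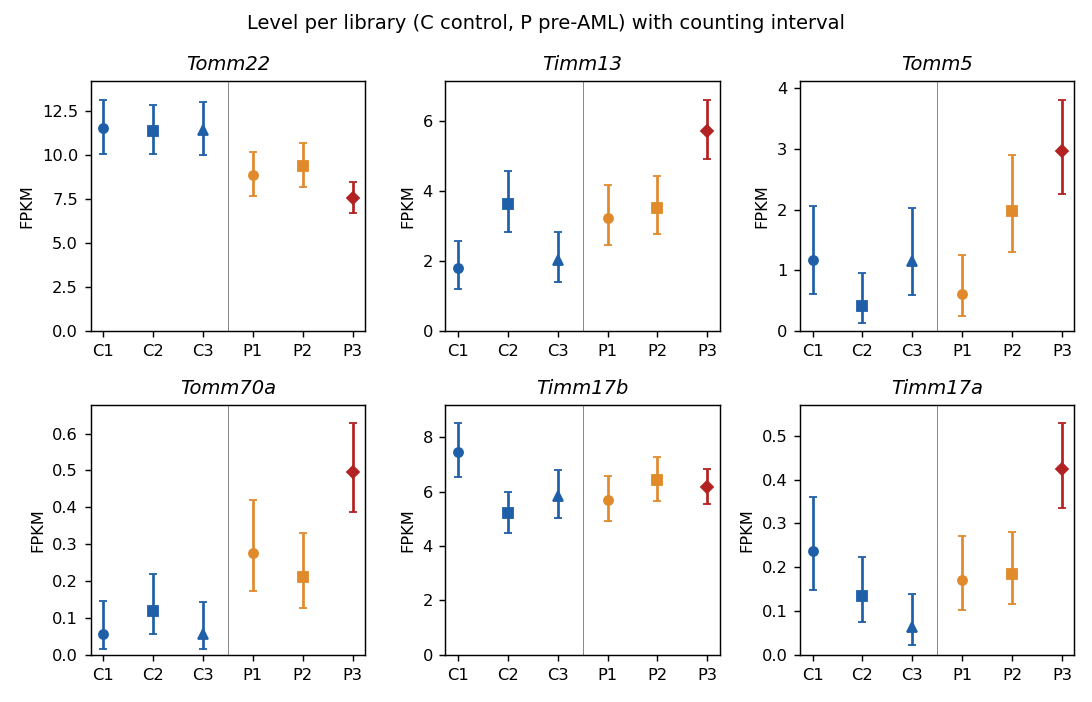
FPKM of 6 TIM and TOM genes in control (C1 to C3) and pre-AML (P1 to P3) libraries on linear axes from 0, with exact Poisson 95% intervals of the reads, which for Tomm70a rest on the smallest whole numbers in the ratio of its values. Tomm22 lies lower and Tomm70a higher in all 3 pre-AML libraries, and Timm13, Tomm5, Tomm70a and Timm17a are highest in P3.

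Among the channel and small subunits, Tomm7 (Entrez gene 66169, chr5:23838944-23844161, minus strand), a stabilizing subunit that in mammals is also needed to keep the kinase PINK1 at the outer membrane, had 111, 90.5 and 80.8 FPKM in the controls and 93.3, 89.9 and 68.7 FPKM in pre-AML platelets. The groups overlapped, and the log2 difference was -0.16 (standard error 0.18), with an adjusted p of 0.708 in limma-trend; it was 0.0056 with the libraries scaled to the same sum of FPKM. Tomm5, another small subunit, had 1.18, 0.409 and 1.16 FPKM against 0.606, 1.99 and 2.96 FPKM, with pre-AML 2 and pre-AML 3 above the controls and pre-AML 1 within them. Its log2 fold change was 0.51 (limma-trend, adjusted p = 0.573), and in control 2 it rested on 5 reads. This value was 0.22 without pre-AML 3, 0.30 without control 2 and 0.87 without pre-AML 1, where the unadjusted p was 0.0113 and the adjusted p 0.307 in limma-trend. Tomm40, the channel itself, was below the filter, with 0.0603, 0.151 and 0.218 FPKM in the controls and 0.0532, 0.281 and 0.981 FPKM in pre-AML 1 to 3. Pre-AML 3 thus had 6.85 times the control mean of Tomm40, while pre-AML 1 was below all controls. Tomm40l, a paralog of the channel gene, had 0 to 0.0692 FPKM in the controls and 0.0146, 0.0387 and 0.142 FPKM in pre-AML platelets. A level of 0 in control 1 allows up to 0.0498 FPKM, the value of 3 reads. In Tomm40l 64.3% of the exon bases are shared with Nr1i3 on the opposite strand, so its reads cannot be assigned to it alone if strand was not used in counting. Tomm20l, a relative of Tomm20, had 1 to 3 reads in every library.

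Tomm34, a cytosolic cochaperone of the import pathway, had 1.29, 1.26 and 2.32 FPKM in the controls and 1.24, 1.26 and 2.99 FPKM in pre-AML platelets. Its log2 fold change was 0.08 (limma-trend, adjusted p = 0.925), and it was -0.20 without pre-AML 3.

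The TIM23 translocase was represented mainly by Timm17b. Timm17b and Timm17a encode alternative forms of the same channel subunit. The level of Timm17b was 7.46, 5.20 and 5.85 FPKM in the controls and 5.70, 6.43 and 6.17 FPKM in pre-AML platelets, with all pre-AML values inside the range of the controls and a log2 fold change of -0.0031 (95% interval -0.35 to 0.35; adjusted p = 0.997 in limma-trend). Timm17a had 0.237, 0.135 and 0.0639 FPKM in the controls and 0.171, 0.185 and 0.424 FPKM in pre-AML platelets. In control 1 to 3 Timm17b had 224, 187 and 178 reads on exons of 2557 bases, and Timm17a 22, 15 and 6 on 7893 bases. Per length, Timm17b was therefore 31.4, 38.5 and 91.6 times as abundant as Timm17a in control 1 to 3. The pre-AML libraries had ratios of 33.3, 34.8 and 14.6, the last being the lowest of the 6, and 6 reads of Timm17a stood behind the highest ratio, that of control 3.

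The remaining TIM23 genes were all below the filter. Timm23, the channel subunit that gives the complex its name, had 1.14, 0.517 and 0.518 FPKM in the controls and 0.463, 1.04 and 0.984 FPKM in pre-AML platelets. Timm50, the receptor of the complex, spread widely, with 1.27, 0.530 and 0.282 FPKM against 0.112, 0.519 and 1.79 FPKM, and pre-AML 1 and pre-AML 3 were the lowest and the highest of the 6 libraries. Timm44, which anchors the import motor in the matrix, had 0.116, 0.0388 and 0.0917 FPKM in the controls and 0.0410, 0.253 and 0.456 FPKM in pre-AML platelets. Timm21, which links TIM23 to the outer complex and to the respiratory chain, had 0.113 to 0.325 FPKM in the controls and 0.202, 0.249 and 0.507 FPKM in pre-AML platelets. In each of these 4 genes the groups overlapped, and in Timm50, Timm44 and Timm21 the highest value was that of pre-AML 3.

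Of the TIM22 translocase, both genes passed the filter. Timm22, its channel, had 1.34, 1.25 and 0.686 FPKM in the controls and 1.35, 1.69 and 1.06 FPKM in pre-AML platelets, with a log2 fold change of 0.18 and an adjusted p of 0.715 in limma-trend. Pre-AML 1 and pre-AML 2 lay above the controls, the first by less than its counting error, and pre-AML 3 lay within them. Timm29, an accessory subunit found in metazoans, had 0.645, 1.26 and 1.70 FPKM against 1.11, 0.899 and 0.987 FPKM, with all pre-AML values inside the control range and a log2 fold change of -0.11 and an adjusted p of 0.854 in limma-trend.

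The small TIM chaperones were led by Timm8b, and Tim8 proteins work in a hexamer with the product of Timm13, while the products of Timm9 and Timm10 form another. Timm8b had 8.88, 11.4 and 8.60 FPKM in the controls and 9.58, 13.8 and 12.0 FPKM in pre-AML platelets, with a log2 fold change of 0.26 (95% interval -0.13 to 0.66; adjusted p = 0.560 in limma-trend). Of its exon bases 15.6% are shared with Nkapd1 on the opposite strand, which had a control mean of 0.00534 FPKM. Timm13 (Entrez gene 30055, chr10:80899450-80900969, minus strand) had 1.80, 3.63 and 2.02 FPKM in the controls and 3.23, 3.53 and 5.72 FPKM in pre-AML platelets. Control 2 lay among the pre-AML values, and only pre-AML 3 was above all controls. The log2 fold change of Timm13 was 0.57 (standard error 0.25, 95% interval 0.01 to 1.14), with an unadjusted p of 0.0475 and an adjusted p of 0.522 from limma-trend. It stayed above 0 in all 15 alternatives that gave a value, from 0.33 to 0.80, with an unadjusted p under 0.05 in 5 of them. It was 0.37 (unadjusted p = 0.151) without pre-AML 3.

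Timm10 had 1.67, 2.18 and 0.412 FPKM in the controls and 1.38, 0.651 and 2.89 FPKM in pre-AML platelets, from 4 reads in control 3 to 55 in pre-AML 3. Its log2 fold change was 0.12 (limma-trend, adjusted p = 0.918) and turned to -0.21 without pre-AML 3. Timm9, its partner, was far lower per length, with 0.235, 0.0218 and 0 FPKM in the controls and 0.0460, 0.244 and 0.0919 FPKM in pre-AML platelets. FPKM divides by a gene length. The exon length in GENCODE was 4282 bases for Timm9 and 815 for Timm10. That of Timm9 did not give whole reads, so the length behind its FPKM may have differed. Recovered reads of Timm9, not whole, were 11.8, 1.31 and 0 in the controls and 2.62, 15.7 and 9.18 in pre-AML platelets. Those of Timm10 were 16, 25 and 4 against 15, 8 and 55. Timm10b, which belongs to the form of the chaperone bound to TIM22, had 1.03, 0.653 and 0.670 FPKM against 0.890, 0.465 and 0.653 FPKM, and the groups overlapped. Timm8a1, the paralog of Timm8b whose human counterpart is mutated in deafness-dystonia syndrome, was at 0 in 3 libraries (control 1, control 3 and pre-AML 3) and at most 0.0370 FPKM in the others. At these levels, near that of 1 read, no difference was detectable.

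Compared across all genes, 0 of the 10 tested TIM and TOM genes had an adjusted p under 0.05 in limma-trend, against 1 of 4412 genes (0.0227%). This was Gzma, named after its value was seen and also listed among the T and NK cell markers. At an unadjusted p under 0.05, 1 of the 10 was higher in pre-AML platelets (Timm13) and 1 was lower (Tomm22), against 2.56% higher and 6.53% lower of all tested genes. Values above 0 were found for 6 of the 10 and values below 0 for 4, while 1829 of the 4412 genes were above 0 and 2583 below. The median log2 fold change was 0.10 for the 10 and -0.06 for all tested genes. The median of the 10 was -0.019 without pre-AML 3, and it was 0.22 with the libraries scaled to the same sum of FPKM, which also moved the median of all genes to 0.08.

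**Figure D4:**
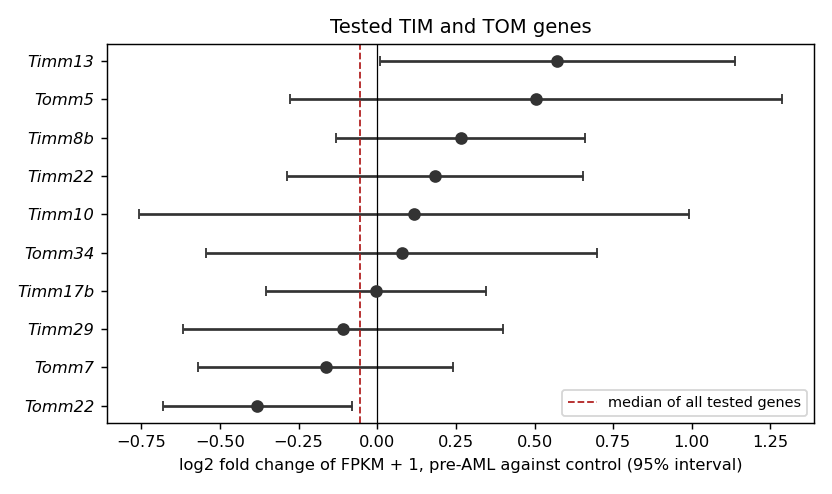
Log2 fold change of FPKM + 1 between pre-AML and control platelets for the 10 tested TIM and TOM genes, with limma-trend 95% intervals. The intervals of Tomm22, below 0, and Timm13, above 0, leave out 0 before adjustment, and the dashed line is the median of all tested genes at -0.06.

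Many of the high values of the low genes stood in a single library. Pre-AML 3 held the highest value of 12 of the 23 TIM and TOM genes, and of 35.9% of all genes. Among the 10 tested genes this was so for 4, against 18.7% of all tested genes, and among the 13 below the filter for 8, against 43.2% of all genes below it. The sum of these 13 genes was 4.54, 3.07 and 2.52 FPKM in the controls and 2.61, 3.96 and 7.04 FPKM in pre-AML 1 to 3. Pre-AML 1 and pre-AML 2 thus lay within the controls and pre-AML 3 above them. It was the library in which 9 of 10 monocyte and macrophage and 7 of 7 B cell markers were above all controls. The part of RNA of these cells in the values of the TIM and TOM genes was not tested.

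The TIM and TOM genes that passed the filter had a shorter length of all exons joined than those that did not. FPKM divides by a length, so at equal numbers of reads a shorter gene has a higher FPKM. Whether this bears on which genes passed the filter was not tested. The lengths given here are those of GENCODE, and the genes whose reads did not come out whole with them were all below the filter. The median exon length was 1511 bases for the 10 and 3722 bases for the 13, against 3553 bases for all tested genes and 4157 bases for all genes with a length. The median GC content of the exons was 51.6% and 50.6%. With length and GC trends removed from each library by loess, the log2 fold change of Tomm7 turned to 0.022, and those of Tomm22 and Timm13 were -0.31 (unadjusted p = 0.0335 in limma-trend) and 0.33 (unadjusted p = 0.153). The median of the 10 tested genes was then 0.019.

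Import also needs partners outside these complexes, among them the motor that pulls proteins into the matrix, the peptidases that remove presequences, and the sorting and assembly machinery of the outer membrane. Of 28 such genes in the table, 10 were tested and 0 had an adjusted p under 0.05. Values below 0 were found for 9 of the 10 and a value above 0 for 1, with a median log2 fold change of -0.22; with the same sum of FPKM or with scaling to recovered reads 6 were below and 4 above. The median was -0.12 with length and GC trends removed, where Immp1l, Mtx2 and Mtch2 described next had log2 fold changes of -0.17, -0.089 and -0.056, and also -0.12 without pre-AML 1. At an unadjusted p under 0.05, 0 were higher and 1 was lower, against the 2.56% and 6.53% of all tested genes given above. This was Immp1l, a subunit of the inner membrane peptidase, with 6.24, 4.09 and 4.75 FPKM in the controls and 4.17, 3.40 and 2.24 FPKM in pre-AML platelets. Its groups overlapped. Its log2 fold change was -0.51 (unadjusted p = 0.0407 and adjusted p = 0.522 from limma-trend). Mtx2, metaxin 2 of the sorting and assembly machinery, had 1.41, 1.88 and 1.65 FPKM against 0.961, 1.01 and 1.29 FPKM. All pre-AML values of Mtx2 lay below all controls, as did those of 12.8% of all tested genes, with a log2 fold change of -0.34 and an adjusted p of 0.522 in limma-trend. Of all 28 partners, Mtx2 was the 1 below, and 2 that did not pass the filter lay above all controls. Over all genes these shares were 5.74% below and 7.53% above. Mtch2, an insertase of the outer membrane, had a log2 fold change of -0.24 and an adjusted p of 0.555 in limma-trend. Samm50, the core of the sorting and assembly machinery, was the one tested partner above 0, with 17.9, 16.9 and 18.4 FPKM in the controls and 18.4, 21.7 and 17.0 FPKM in pre-AML platelets and a log2 fold change of 0.09 and an adjusted p of 0.795 in limma-trend. It was more abundant than any of the TIM and TOM genes other than Tomm7.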

How the data were processed

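Platelet RNA of 3 control and 3 pre-AML libraries was analysed (polyA RNA, SMART-Seq2, Nextera XT). The authors mapped reads to mm10 with STAR and deposited 1 table of FPKM values; the counting program, annotation and use of strand are not given in the sources used here. All per-sample columns were mapped by name. The authors used DESeq2, a count test that was not used here because FPKM values are not counts.

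Gene lengths were unions of exons in GENCODE M21 (GRCm38). With them 83.4% of values above 0 came out as whole reads (within 0.02 reads at low values), and 12341 genes did so in all 6 libraries. The main test was limma-trend (limma 3.58.1, R 4.3.3) on log2(FPKM + 1) over 4412 genes whose mean reached 1 FPKM. It had no covariates, p-values were adjusted by Benjamini-Hochberg, and the threshold was 0.05. Fold changes on this scale understate those of low genes. The test was checked on simulated data. Tables were made with Python 3.11.15 (pandas 2.3.3, numpy 2.4.6, scipy 1.17.1). Counting intervals are exact Poisson 95% intervals, and a level of 0 allows up to 3 reads.

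All TIM and TOM genes were named. Of the other import genes, those past the threshold and up to 3 with the smallest p in each direction were named. The genes and lists were chosen with earlier results of these data known. Of 16 alternative analyses, 3 (scaling to recovered reads, limma-voom on recovered reads, and removal of length and GC trends) were chosen after seeing the data. No p over a gene list was computed. P-values measure only the spread between these libraries.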

Additional observations from a re-analysis of the deposited data

How the results depend on the processing

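No TIM or TOM gene and no other import gene had an adjusted p under 0.05 in any of the 16 alternatives. Over all genes the count was 1, and it was 0 with no filter, with a filter of 10 FPKM, with the same sum of FPKM, with scaling to recovered reads and with limma-voom on recovered reads, 2 with array weights, whose estimation stopped before convergence, and 0 to 2 when 1 library was left out. With the replicate number as a block it was 1. Deviations of libraries with the same number correlated at -0.04, -0.12 and -0.17, so no pairing by number showed in them. They were taken from the group means, and a library that stands apart could hide a pairing, so pairing was not settled. The replicate block changed no call.

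The median log2 fold change of the tested TIM and TOM genes, 0.10, was -0.16 with a filter of 10 FPKM, which left 3 genes, 0.22 with the same sum of FPKM, 0.20 with scaling to recovered reads and 0.26 with limma-voom, but 0.014 with array weights and 0.019 with length and GC trends removed. It was -0.019 to 0.17 when 1 library was left out, the lowest without pre-AML 3. Signs turned for genes near 0. Tomm7 was at 0.0056 with the same sum of FPKM and 0.022 with length and GC trends removed. Timm17b was at 0.15 with the same sum, 0.041 with quantile normalization, 0.066 with array weights, 0.11 with scaling to recovered reads and 0.0075 with limma-voom. With array weights Timm10 was at -0.35 and Tomm34 at -0.16. With 1 library left out, Tomm5 was at 0.22 to 0.87, Timm13 was at 0.37 to 0.80, Timm8b was at 0.15 to 0.40, Timm22 was at 0.036 to 0.28, Timm17b was at -0.10 to 0.12, Timm10 was at -0.23 to 0.41, Tomm34 was at -0.20 to 0.26, Timm29 was at -0.30 to 0.053 and Samm50 at -0.0018 to 0.16. The causes were not tested.

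With 3 libraries in a group, the 95% interval of Timm10 reached from -0.76 to 0.99, so changes of that size could not be told from none. Some of the 13 genes under 1 FPKM rested on few reads, such as Tomm20l with 1 to 3. Timm50 had 4 to 112 and Timm23 11 to 41, against 5 to 60 of Tomm5, which was tested. The 13 genes were tested only without a filter. There, 2 of all 23 genes, Tomm22 and Tomm70a, had an unadjusted p under 0.05 in limma-trend, against 3.32% higher and 2.49% lower of all 14975 genes.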
